A study of Mus musculus with 15 samples.

Results

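Mitosis, spindle and kinetochore genes were followed across mouse haematopoietic stem cells (HSC, the rare bone marrow cells that renew the whole blood system). The list holds 53 genes named for their role in cell division, each matched by symbol to the deposited gene tables, out of 46123 genes in all. All 53 were found and all 53 passed the filter on low counts in both comparisons. They fall into 11 roles: proliferation markers, cyclin-CDK1 with its phosphatases, the transcription factor FOXM1, mitotic kinases, the spindle checkpoint, the anaphase switch, the kinetochore, kinesins, spindle assembly, cytokinesis and condensin.

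The study profiled messenger RNA from pools of 100 sorted HSC of wild-type C57BL/6 mice aged 8 to 10 weeks, in 15 libraries. The cells of 4 Untreated libraries were taken fresh from bone marrow, and those of 4 5-FU day4 libraries were taken fresh 4 days after 5-fluorouracil, an antimetabolite that kills dividing cells and after which surviving HSC are known to enter the cell cycle. A further 3 libraries, named Control, and 4 libraries, named Nifedipine, came from HSC kept in culture and sorted again within 3 divisions, without and with nifedipine, a blocker of L-type calcium channels. How much drug was given, and for how long cells were cultured, is not stated in the sources used here. Nothing states that each library of a group had its own animal or culture, so a p-value here reflects only how far these libraries spread, which may be technical.

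Mitosis is driven by the kinase CDK1 bound to cyclin A or B. Aurora and Polo-like kinases build the spindle, the kinetochore ties chromosomes to it, and the checkpoint holds the anaphase-promoting complex (APC/C) back until every chromosome is attached. Most of these genes are transcribed mainly in the G2 and M phases of the cycle, when FOXM1 and the MuvB complex with B-MYB are known to act on their promoters, and HSC in undisturbed marrow are known to be mostly out of cycle.

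The DNA letters known from that control were read from RefSeq promoters on GRCm38.p6, the assembly also called mm10, from 250 bases before to 50 bases after the gene start. The element read by MuvB (cell cycle homology region) is TTTGAA, which reads TTCAAA on the other strand, or TTTAAA, which is the same on both strands. The box bound by NF-Y is CCAAT, which reads ATTGG on the other strand, and a match to one can share at most its end base with a match to the other. Promoters were held for 44 of the 53 genes (47 starts). TTTGAA or TTTAAA lay within 50 bases of the start in 34 of 47 promoters (72.3%), against 8.28% of 32851 mouse promoters and 5.18% of 13022 promoters of genes tested after 5-FU. At least 2 CCAAT boxes were present in 23 of 47 (48.9%), against 11.5% and 13.6%, and both features stood together in 20 of 47 (42.6%), against 0.977% and 0.929%. Stretches of 6 promoters are printed to show this layout, up to 180 bases that end at the base before the RefSeq start, or, for Top2a and Mki67, 16 and 30 bases earlier, where the deposited gene span begins. Each reads 5′ to 3′ along the gene, with every match to either motif, on either strand, in capitals. The matches are letters only and are not measured binding.
Ube2c (chr2:164769749-164769928, plus strand): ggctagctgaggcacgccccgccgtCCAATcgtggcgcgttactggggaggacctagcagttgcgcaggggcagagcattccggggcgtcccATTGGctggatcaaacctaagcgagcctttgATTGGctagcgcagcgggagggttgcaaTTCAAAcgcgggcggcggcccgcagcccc
Cdk1 (chr10:69352913-69353092, minus strand): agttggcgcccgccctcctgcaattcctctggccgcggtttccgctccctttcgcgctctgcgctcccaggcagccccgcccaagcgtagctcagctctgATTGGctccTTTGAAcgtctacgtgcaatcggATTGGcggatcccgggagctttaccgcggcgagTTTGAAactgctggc
Ccnb1 (chr13:100786487-100786666, minus strand): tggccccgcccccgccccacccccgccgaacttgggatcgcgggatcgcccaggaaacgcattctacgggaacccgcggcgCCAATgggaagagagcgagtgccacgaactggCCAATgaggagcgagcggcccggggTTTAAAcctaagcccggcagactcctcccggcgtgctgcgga
Cdc20 (chr4:118437344-118437523, minus strand): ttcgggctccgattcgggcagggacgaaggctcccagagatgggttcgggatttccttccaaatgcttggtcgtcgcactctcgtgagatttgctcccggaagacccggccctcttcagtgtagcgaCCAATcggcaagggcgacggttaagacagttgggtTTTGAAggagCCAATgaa
Top2a (chr11:99024206-99024369, minus strand): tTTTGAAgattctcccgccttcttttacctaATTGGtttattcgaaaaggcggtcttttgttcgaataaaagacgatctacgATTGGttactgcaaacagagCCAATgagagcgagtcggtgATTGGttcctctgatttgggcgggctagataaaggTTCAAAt
Mki67 (chr7:135716410-135716559, minus strand): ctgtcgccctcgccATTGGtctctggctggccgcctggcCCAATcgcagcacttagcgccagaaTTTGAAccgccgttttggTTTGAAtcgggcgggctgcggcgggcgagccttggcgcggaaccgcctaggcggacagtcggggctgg
Ube2c carried 3 CCAAT boxes and 1 match to TTTGAA or TTTAAA in this stretch, Cdk1 2 and 2, Ccnb1 2 and 1, Cdc20 2 and 1, Top2a 4 and 2, and Mki67 2 and 2. In Ube2c, Cdk1, Ccnb1, Cdc20 and Top2a the last match to TTTGAA or TTTAAA began 29, 15, 42, 18 and 23 bases before the start, whereas in Mki67 the nearest began 98 bases before it. Ube2c had the largest log2 fold change of the 53 genes after 5-FU, Cdc20 was among the 3 with the largest fall with nifedipine, and Cdk1 was not called with nifedipine, so these shared letters stood in genes with unlike nifedipine values.

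Total exon reads per library ran from 6171730 (Untreated 2) to 17397392 in fresh cells and from 17582453 to 26673045 in cultured cells. Levels are given as counts per 1000000 exon reads (CPM), scaled with the trimmed mean of M values over all 15 libraries. The 9 HSC marker genes used (Procr, Slamf1, Hlf, Mecom, Fgd5, Hoxb5, Kit, Ly6a, Ctnnal1) had reads in every group. They summed to 3901 to 4181 CPM in Untreated, 2732 to 2974 in 5-FU day4, 1173 to 1236 in Control and 1955 to 2273 in Nifedipine. In the fresh libraries these sums are mostly Hlf and Kit, which were lower after 5-FU (log2 fold changes -0.84 and -0.61). Procr, Fgd5 and Hoxb5 were lower too, while Slamf1, Mecom, Ly6a and Ctnnal1 were not called. Erythroid markers summed to 62.2, 1862, 81.0 and 2085 CPM in Untreated 1 to 4 and to 244 to 329 CPM in 5-FU day4, where 3 of 7 (Hba-a1, Hba-a2, Car1) were at 0. After 5-FU that sum was mostly Hbb-bt (236 to 321 CPM), which had 30.8, 531, 76.4 and 577 CPM in Untreated 1 to 4. Hbb-bt was not called, Hba-a2 and Hbb-bs were lower, and Epor was higher (log2 fold change 1.005). Endothelial and stromal markers summed to 471, 1674, 60.5 and 451 CPM in Untreated 1 to 4 and to 54.1 to 414 CPM in 5-FU day4, where the stromal gene Cxcl12 had 271 CPM in the fourth library and 0 to 0.585 CPM in the others. Progenitor markers summed to 146 to 251 CPM in Untreated and 102 to 118 CPM in 5-FU day4, with Ctsg at 0 in both groups. Mpo had 2.62, 0.746, 0.114 and 0.0650 CPM in Untreated 1 to 4 and was at 0 in 5-FU day4. Granulocyte and monocyte markers did not pass 13.1 CPM and lymphoid markers did not pass 29.5 CPM in any library, and Cd3e and Cd3g were at 0 in all. Reads were not assigned by strand, and 9 of the 53 genes overlap another feature with reads. The widest overlap is that of Prc1 with Rccd1 (21669 bases), whose median was 271 reads against 1747 for Prc1. For Kif20a, Ncapg and Aurka the other feature had the higher median. Kif20a (939 reads) overlaps Cdc23 (4930 bases, 2128 reads) and Brd8 (240 bases, 2442 reads). Ncapg (1931 reads) overlaps Lcorl (3367 bases, 2327 reads), and Aurka (503 reads) overlaps Cstf1 (21 bases, 929 reads). The effect of these overlaps on the counts was not tested.

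**Figure D1:**
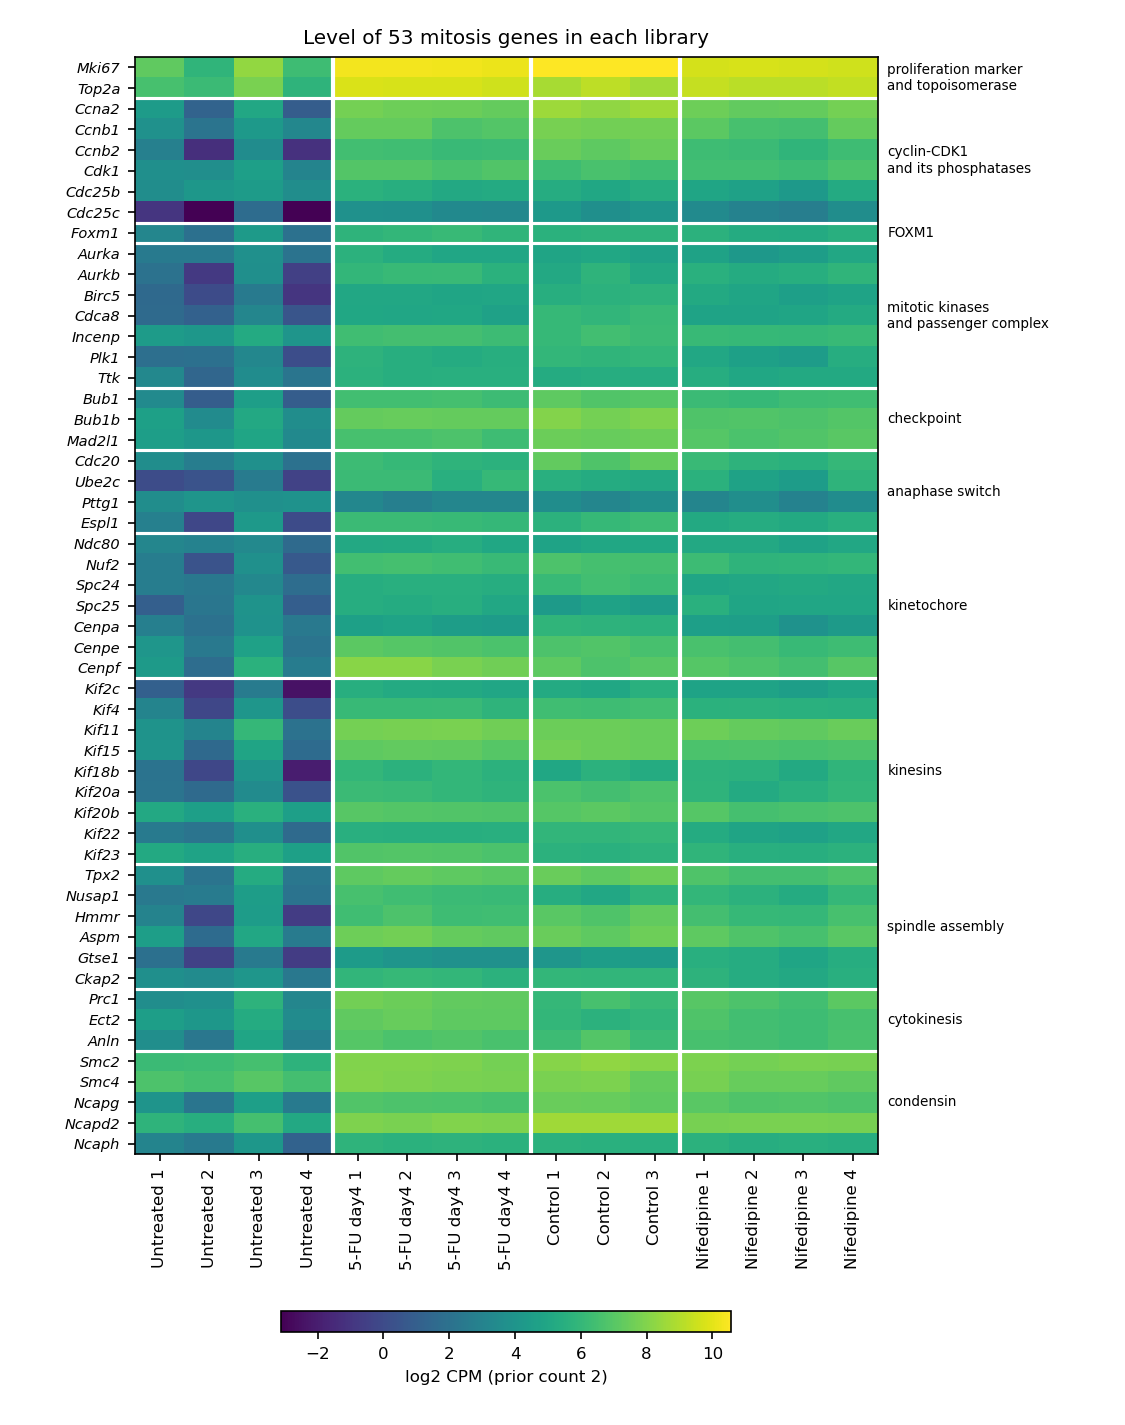
Level of each of the 53 genes (rows, ordered by role) in each of the 15 libraries (columns, white lines between groups) as log2 CPM with a prior count of 2. On average the Untreated columns are darker than the other 3 groups for every gene but Pttg1, and Untreated 3 is the brightest of the 4 in 52 of 53 genes.

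Nearly all mitosis genes were higher 4 days after 5-FU. Of the 53 genes, 52 rose and 1, Pttg1, fell. Across all 13384 genes tested, 26.7% rose and 23.8% fell (50.5% in either direction). The median log2 fold change of the 53 was 2.98, against -0.02 for all genes tested, and 25 of the 53 changed by more than 3 on the log2 scale. The 4 libraries of one group all lay beyond the 4 of the other in all 53 genes (52 higher, 1 lower), whereas 24.1% of all genes tested were separated upward and 23.3% downward. The mean of the 5-FU day4 libraries was a median of 3.73 times the highest Untreated library, with a range of 1.69 to 11.2 over the 52 genes that rose. The test was edgeR's quasi-likelihood F test with Benjamini-Hochberg adjustment over all genes tested. Genes low in Untreated, such as Cdc25c with 7, 0, 55 and 0 reads in Untreated 1 to 4, passed the low-count filter here through the 5-FU day4 libraries. With no filter the calls were again 52 higher and 1 lower. In RNA from pooled cells, fewer cells of a type and less RNA per cell cannot be told apart. Without Untreated 3 the median was 3.71 with the same 52 genes higher; with library sizes set to the read total behind the deposited RPKM, all genes split into 5149 higher and 1844 lower (3580 and 3185 otherwise), and 52 of the 53 genes were again higher.

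**Figure D2:**
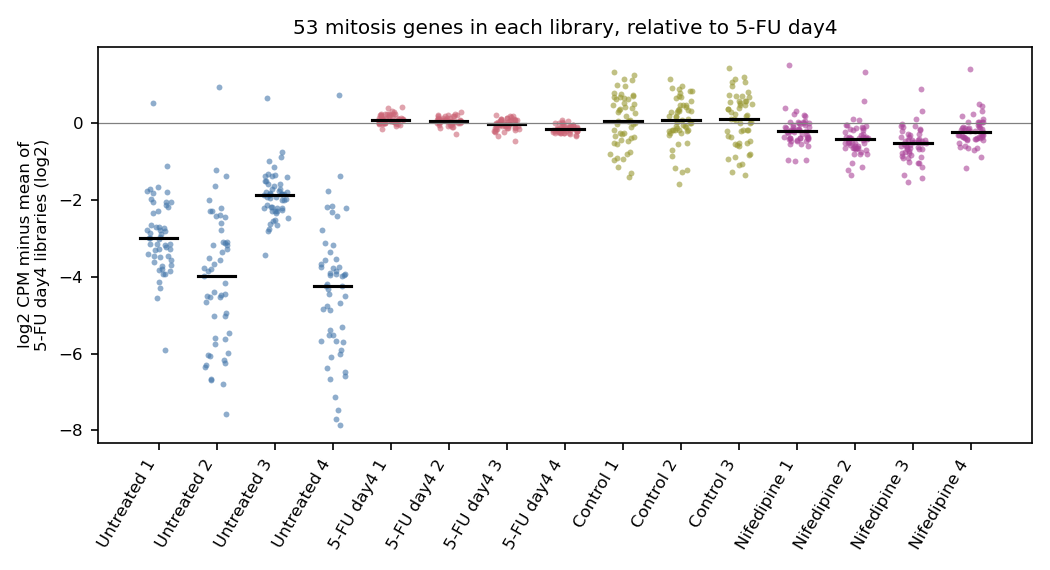
Log2 CPM (prior count 2) of each of the 53 genes (points) in each library, minus the mean of that gene over the 5-FU day4 libraries (grey line at 0); black bars are the median over the 53 genes and sideways scatter is only for legibility. Untreated libraries lie below 0 for all genes but Pttg1 and are the most scattered, Untreated 3 being nearest to 0, while Control and Nifedipine libraries lie around and mostly below 0, respectively.

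The proliferation markers had the highest levels per length of the list after 5-FU. Mki67 (mm10, chr7:135689788-135716409), which coats mitotic chromosomes and marks cycling cells, stood at 153, 56.7, 327 and 78.7 CPM in Untreated 1 to 4 and 1303, 1309, 1228 and 1151 CPM in 5-FU day4 1 to 4 (log2 fold change 3.03 ± 0.45, SE, adjusted p = 0.000301). Top2a, which untangles DNA before chromosomes part, measured 95.7, 74.7, 223 and 54.9 CPM in Untreated and 905, 871, 859 and 772 CPM in 5-FU day4 (log2 fold change 2.94 ± 0.37, SE, adjusted p = 9.36e-05). In both genes Untreated 3 was the highest untreated library and still lay far under the lowest 5-FU library; without it the log2 fold change of Mki67 was 3.69.

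All 6 cyclin-CDK1 genes rose, with log2 fold changes of 1.45 (Cdc25b) to 3.91 (Ccnb2). Ccna2, cyclin A2, had 20.9, 2.24, 33.6 and 1.82 CPM in Untreated and 209, 188, 184 and 164 CPM in 5-FU day4 (log2 fold change 3.58 ± 0.61, SE, adjusted p = 0.000702). Ccnb2, cyclin B2, had 7.02, 0.298, 11.6 and 0.325 CPM in Untreated and 85.3, 82.8, 71.0 and 74.2 CPM after 5-FU (log2 fold change 3.91 ± 0.65, SE, adjusted p = 0.000613). Untreated 2 and 4 held few reads of both cyclins, and Untreated 1 and 3 held more. Cdc25c, a phosphatase that switches CDK1 on, was at 0.390, 0, 3.15 and 0 CPM in Untreated, the 2 zeros allowing up to 0.448 and 0.195 CPM at 3 reads, and at 13.7, 13.3, 10.5 and 9.64 CPM after 5-FU (log2 fold change 3.61 ± 0.88, SE, adjusted p = 0.00615). Its relative Cdc25b had 11.8, 17.8, 20.7 and 12.1 CPM in Untreated and 49.1, 43.8, 35.1 and 38.5 CPM after 5-FU, among the 3 smallest changes of the list (log2 fold change 1.45 ± 0.19, SE, adjusted p = 0.000143). The SD of log2 CPM over the Untreated libraries was 0.40 for Cdc25b, and Cdc25c was close to absent in all but Untreated 3. Ccnb1 and Cdk1 themselves rose by 3.52 and 2.98 on the log2 scale. Foxm1, the transcription factor that drives many of these genes, had 8.75, 3.73, 20.2 and 3.83 CPM in Untreated and 54.7, 62.2, 68.3 and 57.8 CPM after 5-FU (log2 fold change 2.70 ± 0.43, SE, adjusted p = 0.000485). Without Untreated 3 the log2 fold changes were 4.31 (Ccna2), 4.68 (Ccnb2), 6.07 (Cdc25c) and 3.42 (Foxm1), each more than 1.5 times further up on the linear scale.

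Among the mitotic kinases and the chromosomal passenger complex, all 7 genes rose, by 1.90 to 3.72 on the log2 scale. Aurka, Aurora A of the spindle poles, had 5.41, 5.37, 13.3 and 4.22 CPM in Untreated and 51.0, 39.4, 32.1 and 31.9 CPM in 5-FU day4 (log2 fold change 2.45 ± 0.34, SE, adjusted p = 0.000169). Incenp, the scaffold of the passenger complex, had 20.7, 17.3, 38.5 and 15.99 CPM in Untreated and 84.4, 90.05, 89.4 and 78.6 CPM after 5-FU (log2 fold change 1.90 ± 0.24, SE, adjusted p = 0.000101). Incenp was at 15.99 CPM or more in every untreated library. Its enzyme Aurkb (Aurora B) and its partner Birc5 (survivin) had at most 12.7 and 5.55 CPM there and rose by 3.72 and 3.69. Plk1, the Polo-like kinase of mitotic entry, rose by 3.37, and Ttk, the checkpoint kinase MPS1, by 2.69. The 3 checkpoint genes rose as well. Bub1, a checkpoint kinase, measured 10.5, 1.79, 23.4 and 1.75 CPM in Untreated and 85.6, 85.8, 92.0 and 76.2 CPM after 5-FU (log2 fold change 3.11 ± 0.59, SE, adjusted p = 0.00141). Bub1b, the checkpoint protein BUBR1, measured 25.03, 11.3, 35.9 and 12.2 CPM in Untreated and 163, 166, 162 and 164 CPM after 5-FU (log2 fold change 2.93 ± 0.30, SE, adjusted p = 2.49e-05). Mad2l1, the checkpoint protein MAD2, rose by 2.23. The values most moved by leaving out Untreated 3 were 4.99 (Aurkb), 4.45 (Birc5), 3.83 (Cdca8), 4.12 (Plk1) and 4.02 (Bub1) on the log2 scale.

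The anaphase switch held both the largest rise and the only fall. Ube2c, the APC/C ubiquitin-conjugating enzyme, went from 0.948, 1.19, 5.78 and 0.650 CPM in Untreated to 73.5, 73.6, 46.0 and 65.7 CPM after 5-FU (log2 fold change 4.84 ± 0.52, SE, adjusted p = 3.63e-05). Cdc20, the APC/C activator, went from 12.1, 6.27, 13.4 and 3.90 to 76.2, 65.4, 55.4 and 51.0 CPM (log2 fold change 2.79 ± 0.32, SE, adjusted p = 5.77e-05). Pttg1 (mm10, chr11:43420248-43426248), securin, the inhibitor of separase, was at 12.2, 16.4, 13.4 and 14.2 CPM in Untreated and at 9.18, 6.92, 8.89 and 8.94 CPM after 5-FU (log2 fold change -0.69 ± 0.15, SE, adjusted p = 0.00359). The 4 Untreated libraries of Pttg1 lay close together and above all 4 libraries after 5-FU. Its partner Espl1, separase itself, rose by 3.25. Ube2c and Espl1 stood at 6.20 and 4.37 on the log2 scale without Untreated 3. The RefSeq promoter of Pttg1 held neither TTTGAA or TTTAAA nor CCAAT in its 300 bases. The same held for Mad2l1, Ncaph, Nuf2 and Nusap1, which rose by 2.23, 2.64, 3.804 and 3.08 on the log2 scale.

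In the kinetochore list all 7 genes rose, by 1.68 to 3.804. Cenpa, the histone H3 variant that marks centromeres, had 6.80, 3.88, 14.5 and 5.20 CPM in Untreated and 25.6, 28.1, 23.0 and 21.0 CPM after 5-FU (log2 fold change 1.68 ± 0.33, SE, adjusted p = 0.00185). Cenpf, a large protein of the outer kinetochore, had 20.3, 3.28, 50.1 and 6.04 CPM in Untreated and 287, 278, 224 and 193 CPM after 5-FU (log2 fold change 3.56 ± 0.58, SE, adjusted p = 0.000514). The 4 subunits of the NDC80 complex, which grips microtubules, rose by 2.34 (Ndc80), 2.76 (Spc25), 2.88 (Spc24) and 3.804 (Nuf2), and Cenpe, a kinetochore motor, rose by 3.18. All 9 kinesins rose, by 1.78 (Kif23) to 4.06 (Kif2c). Kif11, the motor that pushes spindle poles apart, had 15.3, 8.36, 65.3 and 4.09 CPM in Untreated and 213, 221, 229 and 193 CPM after 5-FU (log2 fold change 3.16 ± 0.62, SE, adjusted p = 0.00172); it is the one listed gene whose reads were added from 2 copies in the tables. Kif2c, a microtubule depolymerase of the centromere, had 2.01, 0.448, 5.84 and 0.0650 CPM in Untreated and 44.3, 37.5, 36.2 and 32.2 CPM after 5-FU (log2 fold change 4.06 ± 0.66, SE, adjusted p = 0.000542). Kif2c showed the second largest change of the list, from untreated levels that differed widely between libraries. Leaving out Untreated 3 raised the log2 fold changes to 4.49 (Cenpf), 4.63 (Nuf2), 4.00 (Spc25), 4.50 (Kif11) and 5.29 (Kif2c), and Kif4, Kif15, Kif18b, Kif20a and Kif22 also moved by more than 1.5 times.

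The remaining roles describe the spindle, the cleavage of the cell and the folding of chromosomes. All 6 spindle assembly genes rose, by 2.39 to 3.42. Aspm, a spindle pole protein, had 23.5, 3.13, 34.6 and 5.91 CPM in Untreated and 189, 201, 162 and 149 CPM after 5-FU (log2 fold change 3.31 ± 0.50, SE, adjusted p = 0.000309). Gtse1, a microtubule-binding protein of G2 and S phase, had 3.79, 0.597, 5.61 and 0.520 CPM in Untreated and 21.2, 16.1, 14.0 and 14.0 CPM after 5-FU (log2 fold change 2.58 ± 0.58, SE, adjusted p = 0.0039). All 3 cytokinesis genes rose by between 2.73 and 2.98. Prc1, which bundles the microtubules of the central spindle, had 12.2, 13.6, 52.5 and 8.97 CPM in Untreated and 202, 184, 158 and 151 CPM after 5-FU (log2 fold change 2.98 ± 0.47, SE, adjusted p = 0.000422). Anln, anillin of the contractile ring, had 12.3, 4.92, 31.0 and 7.28 CPM in Untreated and 127, 104, 118 and 100.5 CPM after 5-FU (log2 fold change 2.98 ± 0.43, SE, adjusted p = 0.000223). Condensin, the ring that compacts chromosomes, rose in all 5 genes. Smc4, one of its ATPases, had 109, 91.3, 129 and 90.9 CPM in Untreated and 259.8, 246, 228 and 220.4 CPM after 5-FU, the smallest rise of the list (log2 fold change 1.21 ± 0.11, SE, adjusted p = 1.52e-05). Ncapd2 had 54.9, 44.3, 93.0 and 35.2 CPM in Untreated and 247, 227, 251 and 240.3 CPM after 5-FU (log2 fold change 2.10 ± 0.24, SE, adjusted p = 5.52e-05). Ncaph, the subunit that closes the condensin I ring, had 8.20, 5.67, 17.2 and 2.21 CPM in Untreated and 56.3, 50.2, 52.8 and 49.7 CPM after 5-FU (log2 fold change 2.64 ± 0.44, SE, adjusted p = 0.000586). Smc2 and Smc4 serve both condensin I and II and changed by 1.73 and 1.21, while Ncapg, Ncapd2 and Ncaph, which belong to condensin I, changed by 3.03, 2.10 and 2.64. In these roles too the values without Untreated 3 were larger, 3.18 for Gtse1, 3.95 for Prc1, 3.71 for Anln and 3.29 for Ncaph, and Hmmr, Nusap1 and Tpx2 moved by more than 1.5 times.

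**Figure D3:**
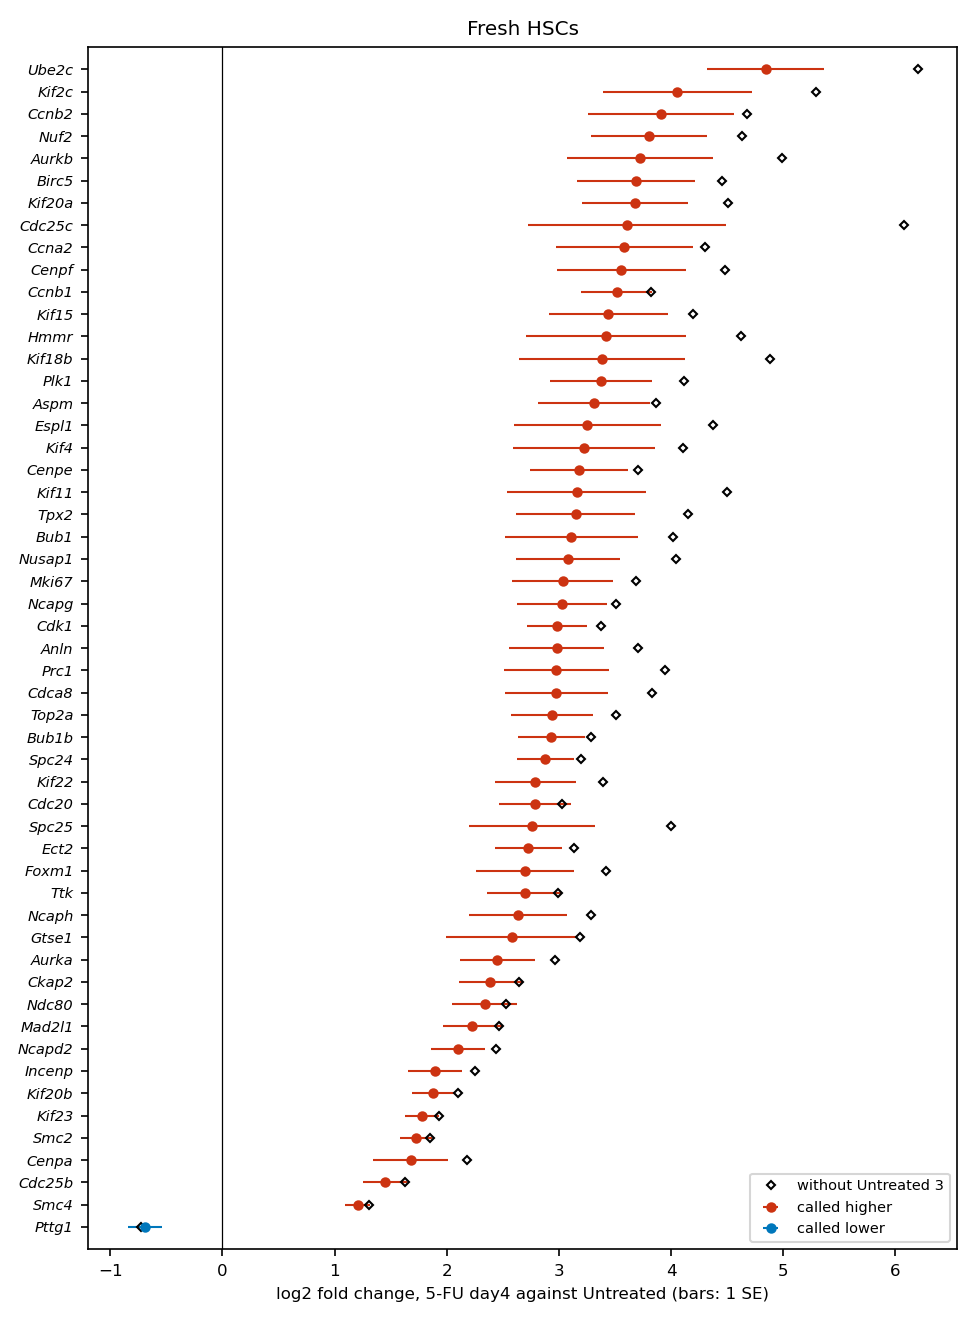
Log2 fold change of each gene, 5-FU day4 against Untreated, sorted by size (points coloured by call, with bars of 1 SE); open diamonds give the value without Untreated 3 and the vertical line is 0. All genes lie to the right of 0 but Pttg1 at -0.69, Ube2c lies farthest right at 4.84, and the diamonds lie to the right of the points for every gene but Pttg1.

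Untreated HSC differed among themselves in these genes far more than in the typical gene. The SD of log2 CPM over the 4 Untreated libraries had a median of 1.14 over the 53 genes (range 0.18 to 2.62), against 0.17 over all genes tested. The same medians were 0.15 against 0.15 in 5-FU day4, 0.15 against 0.13 in Control and 0.21 against 0.15 in Nifedipine. The 53 genes were not matched for level with all genes tested. Some had few reads in Untreated 2 and 4 (Ccnb2 2 and 5, Kif2c 3 and 1), and the part of such low counts in the spread was not tested. Mki67, with 380 to 5720 reads per Untreated library, had an SD of 1.12. Untreated 3 was the highest of its group in 52 of 53 genes, and in the exception, Pttg1, Untreated 2 was highest. Its level was a median of 3.34 times the mean of the other 3 (range 0.94 to 24.2) and at least 2 times that mean in 42 genes. The lowest library was Untreated 4 in 33 genes, Untreated 2 in 18 and Untreated 1 in 2. The summed level was 1035, 649, 1934 and 564 CPM in Untreated 1 to 4, that is 0.111%, 0.0705%, 0.208% and 0.0607% of their exon reads. It was 6306 to 7414 CPM in 5-FU day4, 7277 to 7460 CPM in Control and 4779 to 5665 CPM in Nifedipine. Untreated 2 and 4, the 2 lowest, were also the libraries with erythroid marker sums of 1862 and 2085 CPM, and Untreated 3 had the lowest endothelial and stromal sum, 60.5 CPM; their part in the spread was not tested. HSC marker sums were 4181, 3972, 3901 and 4029 CPM in the same 4 libraries. Leaving out 1 untreated library at a time gave a median SD of 0.81 to 1.38.

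In culture, nifedipine was compared with Control. Of the 53 genes, 31 were lower with nifedipine, 5 were higher (Gtse1, Ect2, Spc25, Prc1, Top2a) and 17 were not called. Across the 12807 genes tested, 24.2% were lower and 25.8% were higher (49.9% in either direction). The median log2 fold change of the 53 was -0.46, against 0.02 for all genes tested. Groups were separated in 28 genes downward and 3 upward (Gtse1, Spc25, Ect2), where 25.5% and 25.7% of all genes tested were separated. In 7 genes the log2 fold change was -1 or less: Cenpa, Cdc20, Ccnb2, Spc24, Cdca8, Bub1b and Ccna2. Nifedipine libraries also held higher HSC marker sums (1955 to 2273 against 1173 to 1236 CPM), higher progenitor sums (241 to 341 against 189 to 223 CPM), lower erythroid sums (99.2 to 159 against 202 to 252 CPM, with Hba-a2 and Car1 at 0 in both groups) and lower megakaryocyte sums (27.8 to 37.0 against 100 to 192 CPM, with Gp1bb at 0 with nifedipine); their part in the result was not tested. These sums hide members that went the other way. Of the HSC markers, Slamf1 and Ctnnal1 were lower with nifedipine (log2 fold changes -1.02 and -0.31). The progenitor sum is mostly Cd34 (0.59), while Cd48 was lower (-1.81). The erythroid sums are mostly Hbb-bt (-0.72), and the megakaryocyte sums in Control are mostly Itga2b (-2.50). In these 2 lists Hbb-bs, Epor, Pf4 and Gp9 were lower too, and Ppbp was not called (-0.04). Fitted together with the fresh libraries, whose spread the test then shares, 14 genes were called lower and 2 higher. Of all 14076 genes tested in that fit, 2960 were lower and 3277 higher. The 20 calls that this joint fit ended were those of Top2a, Spc25 and Prc1 among the higher genes and of Ccna2, Cdc25b, Cdc25c, Birc5, Bub1, Espl1, Nuf2, Cenpe, Kif2c, Kif4, Kif15, Kif20b, Tpx2, Hmmr, Aspm, Ckap2 and Ncapg among the lower ones. Without Control 2 the higher calls were 8, adding Aurkb, Kif18b and Anln.

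The 2 proliferation markers went opposite ways with nifedipine. Mki67 had 1519, 1525 and 1474 CPM in Control 1 to 3 and 822, 869, 813 and 775 CPM in Nifedipine 1 to 4 (log2 fold change -0.88 ± 0.05, SE, adjusted p = 3.3e-10). Top2a had 446, 585 and 408 CPM in Control and 656, 561, 567 and 646 CPM with nifedipine (log2 fold change 0.34 ± 0.09, SE, adjusted p = 0.00586). All Nifedipine libraries of Mki67 lay under all Control libraries, whereas Control 2 of Top2a lay above 2 of the Nifedipine libraries. Top2a was not called in DESeq2, without Control 3 or in the joint fit.

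Of the 6 cyclin-CDK1 genes, 5 were lower and Cdk1 was not called, with a log2 fold change of 0.04. Ccna2 had 373, 321 and 388 CPM in Control and 186, 158, 164 and 209.8 CPM with nifedipine (log2 fold change -1.01 ± 0.09, SE, adjusted p = 4.7e-08). Ccnb2 had 175, 146 and 175 CPM in Control and 80.9, 73.1, 56.6 and 80.5 CPM with nifedipine (log2 fold change -1.18 ± 0.10, SE, adjusted p = 5.36e-08). The cyclins were separated between groups in all libraries, while the kinase they activate overlapped. Cdc25c had 19.7, 13.1 and 16.6 CPM in Control and 10.9, 7.77, 6.53 and 11.9 CPM with nifedipine (log2 fold change -0.83 ± 0.21, SE, adjusted p = 0.00265). Foxm1 had 49.7, 53.8 and 52.3 CPM in Control and 51.3, 38.9, 38.1 and 45.8 CPM with nifedipine, and missed the threshold (log2 fold change -0.25 ± 0.11, SE, adjusted p = 0.0594). The Foxm1 groups overlapped through Nifedipine 1.

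Of the mitotic kinases and passenger genes, 3 were lower and 4 were not called. Cdca8, borealin of the passenger complex, had 66.4, 60.2 and 70.4 CPM in Control and 28.5, 28.2, 30.2 and 38.5 CPM with nifedipine (log2 fold change -1.07 ± 0.11, SE, adjusted p = 3.92e-07). Incenp had 67.7, 87.4 and 75.2 CPM in Control and 69.9, 65.4, 63.3 and 69.5 CPM with nifedipine (log2 fold change -0.19 ± 0.09, SE, adjusted p = 0.086). Aurka had 28.9, 32.8 and 26.3 CPM in Control and 27.5, 18.3, 22.9 and 34.5 CPM with nifedipine (log2 fold change -0.18 ± 0.16, SE, adjusted p = 0.387). Incenp and Aurka overlapped between groups; Plk1 and Birc5 were the other 2 genes that fell, by 0.96 and 0.71 on the log2 scale. All 3 checkpoint genes were lower. Bub1 had 145, 117 and 127 CPM in Control and 74.6, 66.3, 81.2 and 84.2 CPM with nifedipine (log2 fold change -0.76 ± 0.09, SE, adjusted p = 1.87e-06). Bub1b had 259, 209 and 247 CPM in Control and 113, 115, 108 and 122 CPM with nifedipine (log2 fold change -1.06 ± 0.08, SE, adjusted p = 4e-09). Mad2l1 fell by 0.58. In the anaphase switch, Cdc20 had 155, 110.3 and 165 CPM in Control and 70.8, 54.2, 47.9 and 63.1 CPM with nifedipine, one of the 3 largest falls (log2 fold change -1.28 ± 0.13, SE, adjusted p = 2.39e-07). Pttg1 had 12.2, 9.04 and 12.6 CPM in Control and 8.63, 12.7, 7.65 and 11.6 CPM with nifedipine, with no call (log2 fold change -0.16 ± 0.20, SE, adjusted p = 0.556). Cdc20 was separated between groups, while Pttg1, whose protein the APC/C degrades with the help of CDC20, overlapped. Espl1 fell by 0.70, and Ube2c was not called (-0.07).

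Kinetochore genes split in direction: 4 were lower, Spc25 was higher and 2 were not called. Cenpa had 57.9, 54.2 and 51.3 CPM in Control and 24.6, 23.7, 14.4 and 20.6 CPM with nifedipine, the largest fall of the list (log2 fold change -1.39 ± 0.14, SE, adjusted p = 2.94e-07). Spc24 had 69.1, 84.7 and 73.4 CPM in Control and 30.9, 34.5, 36.9 and 34.7 CPM with nifedipine (log2 fold change -1.14 ± 0.10, SE, adjusted p = 2.97e-08). Spc25, which pairs with SPC24 in the same complex, had 20.4, 27.7 and 21.7 CPM in Control and 47.1, 31.0, 32.1 and 31.9 CPM with nifedipine (log2 fold change 0.62 ± 0.15, SE, adjusted p = 0.00267). These 3 genes were each separated between the groups. Cenpf had 144, 108 and 128 CPM in Control and 124, 109.6, 90.3 and 131 CPM with nifedipine, with no call (log2 fold change -0.15 ± 0.11, SE, adjusted p = 0.272). Of the kinesins 6 were lower and 3 (Kif11, Kif18b, Kif23) were not called. Kif15, a second motor that drives poles apart, had 204, 183 and 165 CPM in Control and 105, 109, 101 and 109 CPM with nifedipine (log2 fold change -0.80 ± 0.07, SE, adjusted p = 1.04e-07). Kif4, a chromosome-bound motor, had 83.6, 80.7 and 85.0 CPM in Control and 49.5, 50.7, 48.2 and 46.4 CPM with nifedipine (log2 fold change -0.77 ± 0.08, SE, adjusted p = 2.74e-07). Kif11 and Kif15, which share a task in the spindle, thus differed in call, a difference that was not itself tested. Kif11 had 180.1, 179 and 168 CPM in Control and 189, 162, 153 and 174 CPM with nifedipine (log2 fold change -0.05 ± 0.07, SE, adjusted p = 0.594). Kif2c had 38.5, 32.5 and 47.8 CPM in Control and 28.6, 28.1, 23.2 and 30.4 CPM with nifedipine (log2 fold change -0.52 ± 0.13, SE, adjusted p = 0.00297).

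Spindle assembly genes were lower in 4 of 6, with Gtse1 higher and Nusap1 not called. Gtse1 (mm10, chr15:85859690-85876573) had 17.1, 22.5 and 21.1 CPM in Control and 46.2, 40.6, 30.1 and 42.8 CPM with nifedipine, the largest rise of the list (log2 fold change 0.99 ± 0.14, SE, adjusted p = 1.79e-05). Aspm had 174, 147 and 185 CPM in Control and 146, 111, 94.7 and 136 CPM with nifedipine (log2 fold change -0.46 ± 0.12, SE, adjusted p = 0.00279). Every Nifedipine library of Gtse1 was above every Control library, and the reverse held for Aspm. None of the 3 cytokinesis genes was lower. Ect2, which turns on the RHOA switch at the cleavage site, had 61.9, 50.9 and 60.04 CPM in Control and 111, 87.4, 81.2 and 97.8 CPM with nifedipine (log2 fold change 0.71 ± 0.10, SE, adjusted p = 1.8e-05). Prc1 had 65.04, 95.1 and 71.3 CPM in Control and 132, 106, 85.2 and 139 CPM with nifedipine (log2 fold change 0.58 ± 0.14, SE, adjusted p = 0.00239). Anln had 76.4, 119 and 73.5 CPM in Control and 97.5, 89.9, 79.1 and 98.6 CPM with nifedipine, with no call (log2 fold change 0.03 ± 0.13, SE, adjusted p = 0.863). Ect2 was separated between groups, while Prc1 overlapped through Control 2 and Nifedipine 3. Of the condensin genes, Ncapd2, Ncapg and Smc2 were lower. Ncapd2 had 398, 392 and 398 CPM in Control and 217, 229, 229 and 215 CPM with nifedipine (log2 fold change -0.83 ± 0.06, SE, adjusted p = 2.14e-09). Ncaph had 51.3, 48.3 and 46.3 CPM in Control and 50.6, 43.0, 45.7 and 42.5 CPM with nifedipine, with no call (log2 fold change -0.10 ± 0.09, SE, adjusted p = 0.423).

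**Figure D4:**
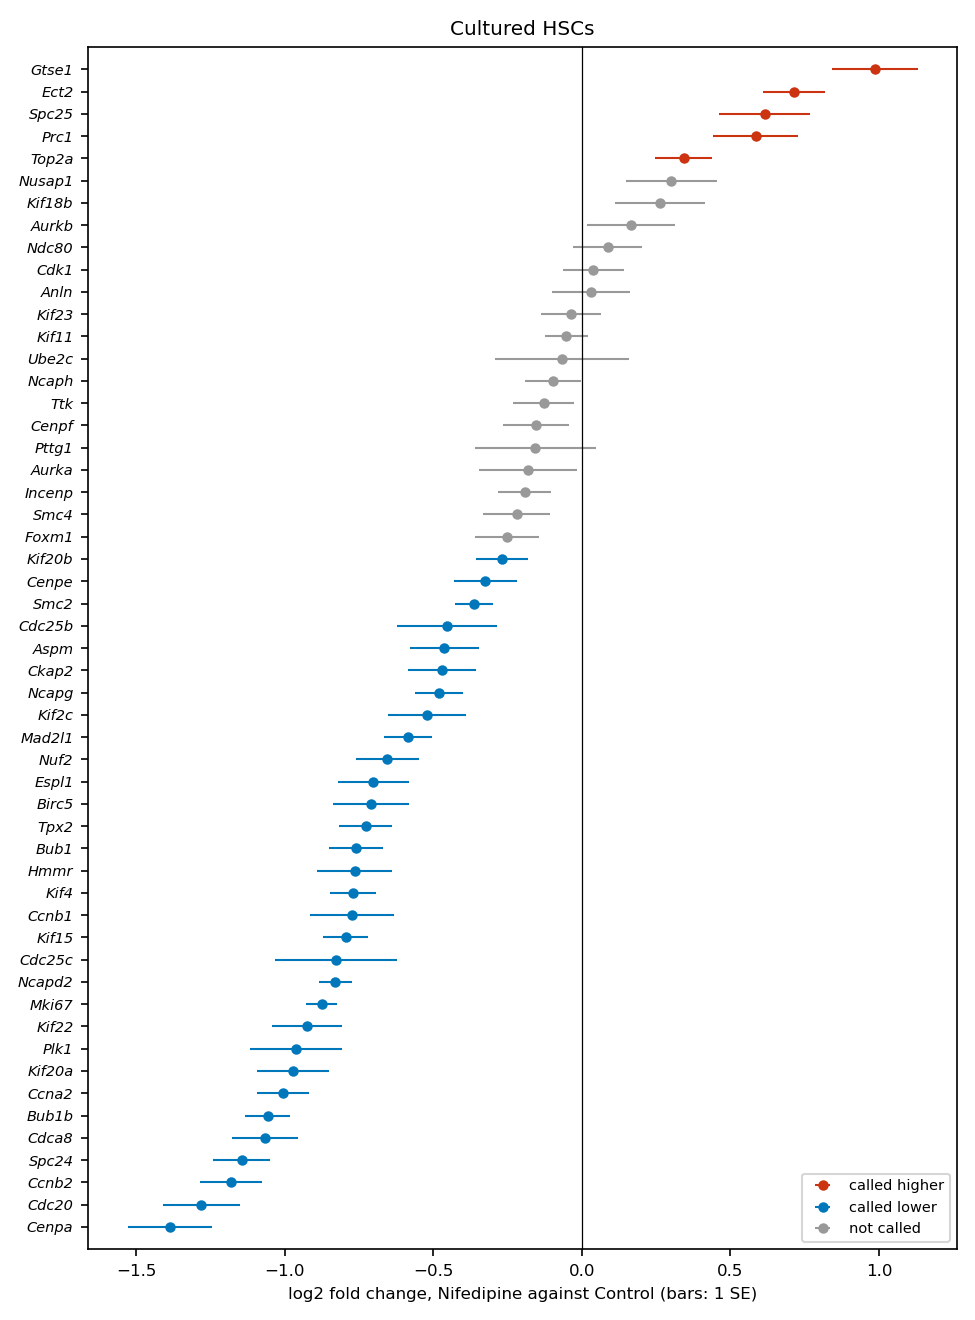
Log2 fold change of each gene, Nifedipine against Control, sorted by size (points coloured by call, with bars of 1 SE); the vertical line is 0. Most genes lie left of 0, down to Cenpa at -1.39, and Gtse1, Ect2, Spc25, Prc1 and Top2a lie right of 0 as higher calls.

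Among the 44 genes with a promoter entry, TTTGAA or TTTAAA lay within 50 bases of the start in 5 of 5 called higher with nifedipine, 17 of 26 called lower and 10 of 13 not called, and at least 2 CCAAT boxes stood in 4, 12 and 6 of them.

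Levels of subunits of one complex were set against each other within each library. Within a library, the ratio of Spc24 to Spc25 reads was 3.06 to 3.39 in Control and 0.655 to 1.15 in Nifedipine. The fresh libraries gave 0.632 to 3.20 in Untreated and 1.01 to 1.28 in 5-FU day4. In the passenger complex, the ratio of Aurkb to Cdca8 reads was 0.504 to 0.914 in Control and 1.41 to 1.65 in Nifedipine. In the fresh libraries it was 0.214 to 1.43 in Untreated, which spans the Control range and reaches that of Nifedipine, and 1.90 to 2.22 in 5-FU day4. Of the 12 ratios between subunits of these 2 complexes, 9 were separated between Control and Nifedipine, and Nuf2 to Spc24, Aurkb to Incenp and Birc5 to Cdca8 overlapped. With 3 against 4 libraries there are 35 assignments, so the exact two-sided permutation test cannot go below p = 0.0571; the 9 separated ratios had that value and an adjusted p of 0.0761 over the 12, and none passes 0.05.

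**Figure D5:**
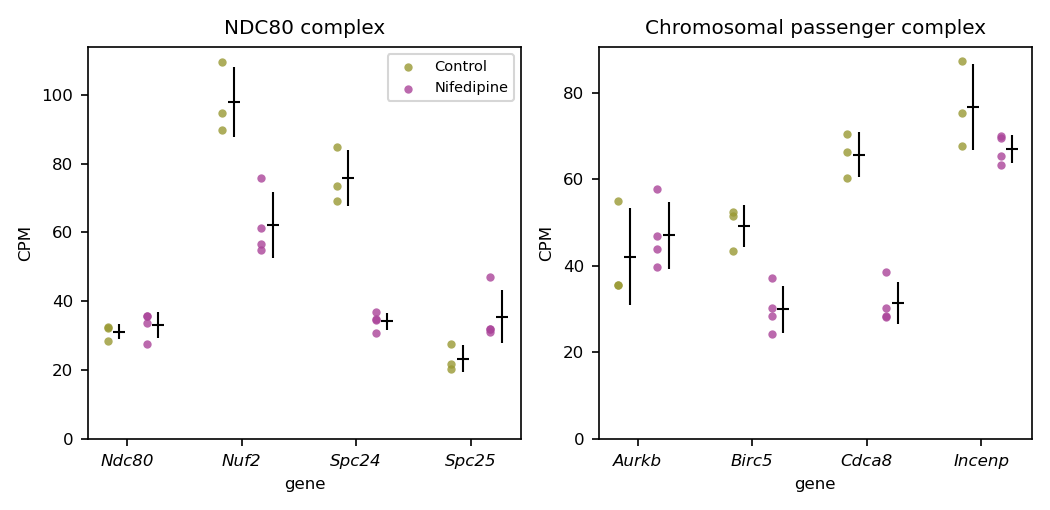
CPM of the subunits of the NDC80 complex (left) and the chromosomal passenger complex (right) in each Control and Nifedipine library (coloured points), on linear axes that start at 0; black marks are the mean with bars of 1 SD (n = 3 and n = 4). Spc24 is lower with nifedipine in every library while Spc25 is higher in every library, and Cdca8 is lower while Aurkb overlaps.

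No source used here says whether fresh and cultured libraries were prepared together, so culture and any difference in preparation cannot be told apart, and levels across the 4 groups are given without a test. All Control libraries lay above all Untreated libraries in 52 of 53 genes (33.4% of 14076 genes did, and 36.5% lay below), and Pttg1 overlapped. All Nifedipine libraries lay above Untreated in 50 (29.8% of genes), with Cdc25b, Pttg1 and Cenpa overlapping. Control lay above 5-FU day4 in 21 genes (39.6%, against 30.4% of all genes), below it in 10 (18.9%, against 29.4%) and overlapped it in 22. The 10 below were Top2a, Foxm1, Ttk, Spc25, Cenpf, Kif11, Kif23, Nusap1, Prc1 and Ect2, and the mean level of Cdc20, Cenpa, Cdca8 and Ccnb2 in Control was 2.31, 2.23, 2.14 and 2.11 times that in 5-FU day4. Nifedipine lay below 5-FU day4 in 23 genes (43.4%, against 20.9% of all genes), above it in 1, Gtse1 (22.1% of all genes), and overlapped it in 29. With the RPKM read total the 23 became 10. All 3 cytokinesis genes lay below 5-FU day4 in the Nifedipine libraries, with mean levels of 0.66 (Prc1), 0.62 (Ect2) and 0.81 (Anln) times those after 5-FU. Since both cultured groups are set against the same fresh libraries, and Control is also the reference for nifedipine, these counts are not independent of each other.

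Per kilobase of exon, which allows levels to be compared between genes, the median of the 53 was 3.21 CPM per kb in Untreated, 21.8 in 5-FU day4, 23.2 in Control and 17.8 in Nifedipine. In Untreated the highest levels per length were those of Smc4 (23.8 CPM per kb) and Top2a (21.4), and the lowest was that of Cdc25c (0.346). SMC4 also serves condensin II, which is known to be in the nucleus throughout the cycle, and any part of this in the level of Smc4 was not tested. After 5-FU the highest were Top2a (163 CPM per kb) and Mki67 (123), and the lowest again Cdc25c (4.62). Control was led by Mki67 (149 CPM per kb) and Ccna2 (107), with Pttg1 lowest (6.39), and Nifedipine was led by Top2a (116 CPM per kb) and Mki67 (81.2), with Cdc25c lowest (3.63). The order of Mki67 and Top2a thus differed between Control and Nifedipine.

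A further 113 genes that are not among the 53, listed beside this machinery, were tested in the same fits. The lists are not confined to genes that act only in mitosis. After 5-FU 91 rose (80.5%, against 26.7% of all genes) and 7 fell (6.19%, against 23.8%), with a median log2 fold change of 0.94. All 31 further kinetochore genes rose, among them Zwilch of the RZZ complex, with a mean of 12.5 ± 2.49 CPM in Untreated and 43.0 ± 2.29 CPM after 5-FU (SD, n = 4 each, log2 fold change 1.81 ± 0.14, SE). Of the spindle and cytokinesis genes 20 of 22 rose, and Numa1 and Kif3a fell. Numa1, a spindle pole organiser with a role in the interphase nucleus, fell by 0.45 ± 0.05 on the log2 scale (SE). Kif3a, a kinesin, had a log2 fold change of -0.53 ± 0.09 (SE). Of 16 APC/C genes 8 rose, led by Fbxo5, the APC/C inhibitor EMI1 (2.26 ± 0.20, SE). Of 15 cohesin genes 11 rose, among them Sgol1, shugoshin (2.23 ± 0.15, SE), and the cohesin loaders Nipbl and Mau2 fell by 0.30 and 0.23. Of 14 entry kinases and phosphatases 11 rose, and all 3 condensin II genes rose. Among 12 genes of MuvB, B-MYB and the DREAM complex 7 rose and 3 fell, where 26.7% and 23.8% of all genes did. Rbl2, the pocket protein p130 of resting cells, fell from 227 ± 12.7 to 169 ± 11.5 CPM (SD, n = 4 each).

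With nifedipine, 50 of the 113 were lower (44.2%, against 24.2% of all genes) and 10 were higher (8.85%, against 25.8%), with a median log2 fold change of -0.20. Tacc3, which steadies spindle microtubules, was at 99.4 ± 8.50 CPM in Control (SD, n = 3) and 47.7 ± 4.38 CPM in Nifedipine (SD, n = 4), a log2 fold change of -1.06 ± 0.09 (SE, adjusted p = 3.22e-08). Psrc1, a spindle protein, was the largest of the higher calls named, at 18.0 ± 4.35 CPM in Control (SD, n = 3) and 44.5 ± 2.79 CPM in Nifedipine (SD, n = 4, adjusted p = 3.92e-07). The lists were lower in 11 of 31 kinetochore genes, 11 of 22 spindle and cytokinesis genes, 8 of 14 entry genes, 7 of 16 APC/C genes, 6 of 15 cohesin genes, 2 of 3 condensin II genes and 5 of 12 genes of MuvB, B-MYB and DREAM. Cks1b and Cks2, small partners of CDK1, fell by 0.99 and 0.95 on the log2 scale. The MuvB, B-MYB and DREAM list was mixed, with 3 of its 12 genes higher, where 25.8% of all genes were, and a median of -0.05. Mybl2, B-MYB itself, E2f4, Tfdp1, Lin9 and Lin54 fell by 0.89, 0.72, 0.43, 0.43 and 0.24, and Rbl2, Tfdp2 and Rbl1 rose by 0.48, 0.46 and 0.38. Rbl2 and Tfdp2 had fallen after 5-FU, and Rbl1 had risen.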

How the data were processed

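Each library has a table with the total exon reads of each gene, whole-number counts as deposited by the authors, beside RPKM, reads scaled by the authors to exon length and read total. No aligner, counter or read filter is stated in the sources used here. Coordinates are those of mm10 (per the submitters' processing notes). Libraries were made with an unstranded transposase kit, per the labels. Copies of a gene on several scaffolds were added up, which turned 48737 features into 46123 genes and moved 4.66 to 4.94% of reads. The RPKM served only to recover each library's read total and exon lengths. Exon reads were 24.96 to 26.28% of that total in Untreated, 30.0 to 31.9% in 5-FU day4, 35.5 to 38.9% in Control and 31.8 to 38.4% in Nifedipine.

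The 2 comparisons were each tested without the other's libraries in edgeR 4.0.16 under R 4.3.3 (quasi-likelihood F test, trimmed mean of M values, filterByExpr), with Benjamini-Hochberg adjustment over all genes tested and calls at 0.05. The script was tested on simulated data. Printed CPM are scaled over all 15 libraries. The members and lists were chosen with earlier results of these data known, so none of them is independent evidence. Values of every library are printed for the gene with the highest and the lowest mean CPM in each role, for the 3 largest and 3 smallest log2 fold changes of a comparison, and for up to 12 genes called with nifedipine by smallest p; of the other lists, called genes with the smallest p are named. Levels in CPM follow gene length, so genes are compared per kilobase. Libraries within a group differed by more than sampling noise (chi-square per gene 4.81 to 23.1). Same-numbered libraries did not deviate together (correlations of -0.14 to 0.17), so no pairing was used. Alternatives were DESeq2 size factors, the RPKM read total, no filter, DESeq2 1.42.0, limma 3.58.1 with voom, 1 fit of all libraries, a replicate block and leaving out each library. Of the cell type marker lists, 2 genes are not reported here and were left out of the sums.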

Additional observations from a re-analysis of the deposited data

Results flagged for a closer look

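A library was picked out where its gap to the nearest of the other 3, divided by the range of the group of 4, passed Dixon's critical value for 4 values at the 95% level. Among 159 groups tested (53 genes in Untreated, 5-FU day4 and Nifedipine), 8 met this, and chance alone gives about 1 in 20, or 8.0. Of the 8, 5 were Untreated 3 and each was the highest of its group. These were Cdc25c at 3.147 CPM (the others 0 to 0.390), Aurka at 13.28 CPM (4.22 to 5.41), Ube2c at 5.78 CPM (0.650 to 1.19), Nusap1, a microtubule-bundling spindle protein, at 22.66 CPM (4.16 to 5.82) and Prc1 at 52.53 CPM (8.97 to 13.6). In 5-FU day4 2, Pttg1 was low at 6.919 CPM (the others 8.89 to 9.18) and Hmmr, a spindle protein, was high at 108.8 CPM (80.4 to 84.4). In Nifedipine 1, Spc25 was high at 47.11 CPM (31.0 to 32.1), and all 4 Nifedipine libraries of this gene lay above Control.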

How the results depend on the processing

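After 5-FU the 52 higher and 1 lower calls were the counts under every alternative run, with medians of 2.74 to 3.71 when 1 library was left out; all 795 single-gene values kept direction and call. The fold after 5-FU moved by more than 1.5 times in 29 genes without Untreated 3, in 11 with voom and in 3 with a replicate block, upward in each. The nifedipine counts held for most settings: 5 higher and 31 lower with DESeq2 size factors, no filter or voom, 4 and 31 with DESeq2 (Top2a lost), and 5 and 28 with the RPKM read total (Cdc25b, Cenpe and Kif20b lost). With all 15 libraries in 1 fit, 2 were higher and 14 lower, beside 3277 higher and 2960 lower of all 14076 genes tested. There 20 calls were lost and the biological coefficient of variation was 0.184 against 0.13. Leaving out 1 library gave 5 to 8 higher, 28 to 33 lower and medians of -0.54 to -0.36; calls ended for Cdc25b (without Control 1 or 3 or Nifedipine 2 or 3), Kif20b (Control 2, Nifedipine 2 or 3), Cenpe (Control 2, Nifedipine 3) and Top2a (Control 3). Over single genes with nifedipine, 682 alternative values kept their verdict, 34 lost a call, 12 gained one and 14 changed sign; the cause was not tested. The signs that changed were those of uncalled genes: Kif23 was 0.01 with the RPKM read total (-0.114 to 0.00969 with a library left out), Cdk1 ranged from -0.055 to 0.149, Anln from -0.0915 to 0.285 and Ube2c from -0.29 to 0.13. The RPKM read total moved the median of all genes after 5-FU from -0.02 to 0.17. Of the 113 further genes, those that fell after 5-FU went from 7 to 3. Of the 53, those with Nifedipine below 5-FU day4 went from 23 to 10. With a replicate block, medians were 3.25 after 5-FU (52 higher, 1 lower) and -0.51 with nifedipine (5 higher, 33 lower, gaining Ube2c and Cenpf), and Cdk1 was -0.046; same-numbered libraries share only a number (correlations -0.03, -0.14, 0.10 and 0.17, and 0.03, 0.05 and 0.01). Depth limits the lowest genes: 3 reads are worth 0.127 to 0.448 CPM, and Cdc25c had none in Untreated 2 and 4.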

Other observations

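In the treated groups too, the 53 genes ranked the libraries unevenly. Of the 5-FU day4 libraries, the fourth was lowest in 36 genes and highest in 0, with a summed level of 6306 CPM against 6856 to 7414 CPM in the others. This library also carried stromal markers, with Cxcl12 at 271 CPM (0 to 0.585 CPM in the others), Lepr at 28.0 CPM (0.276 to 1.09 CPM) and Col1a2 at 29.5 CPM (4.81 to 6.26 CPM). In Untreated 1 to 4, Cxcl12 had 98.7, 1161, 0.629 and 219 CPM, and Lepr had 33.6, 267, 1.03 and 54.3 CPM. Col1a2 had 19.7, 70.3, 5.04 and 22.2 CPM there. The part of these markers in the lower levels of the fourth 5-FU day4 library was not tested. Nifedipine 3 was lowest in 32 genes and highest in 1, and Nifedipine 1 and 4 were highest in 24 and 22. In Control no library stood apart: each was highest in 16 to 19 genes and lowest in 14 to 22.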
